A study of Caenorhabditis elegans with 6 samples.

Results

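The genes mir-2208a, mir-2208b, mir-2209a, mir-2209b and mir-2209c form a compact group of microRNA (miRNA) genes on chromosome IV of Caenorhabditis elegans. They are the rows cel-mir-2208a, cel-mir-2208b, cel-mir-2209a, cel-mir-2209b and cel-mir-2209c, 5 of the 253 miRNA genes in the count tables. They were picked by name with their excess in male gonads already known from these data. The male against hermaphrodite difference of each gene is therefore a description and carries no test. Small RNA was sequenced from gonads isolated from adult worms of the wild-type strain N2, giving 3 male and 3 hermaphrodite libraries. No mutation or agent is named for either sex, and the labels give the cell type of both as germline. Each library is a sample of its own in the labels, which do not say how many animals were pooled. Tests therefore measure the spread between these samples, which may be technical.

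A miRNA gene is transcribed into a long primary RNA, from which a hairpin is cut and processed into a mature strand of a little over 20 bases. The mature strand guides an Argonaute protein to messenger RNAs that match its seed, the bases near its 5′ end, and such messages are repressed. Neighbouring hairpins are often cut from the same primary transcript. The adult male gonad of C. elegans makes sperm only. The adult hermaphrodite gonad makes oocytes, after making the sperm that it keeps for self-fertilisation.

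In the WBcel235 assembly (Ensembl release 115) the 5 genes lie at chrIV:1021303-1027281, a span of 5979 bases that holds no other annotated gene. They fall into a left and a right group. On the left are mir-2209b, at chrIV:1021303-1021365 on the minus strand, and mir-2208a, at chrIV:1021772-1021832 on the plus strand. On the right, after a gap of 4747 bases, are mir-2208b at chrIV:1026580-1026640, mir-2209a at chrIV:1027101-1027164 and mir-2209c at chrIV:1027218-1027281, all on the plus strand. Only 53 bases separate mir-2209a from mir-2209c, and 460 bases separate mir-2208b from mir-2209a. Each group thus holds a mir-2208 gene beside a mir-2209 gene, in opposite order along the chromosome, and only mir-2209b is on the minus strand. None of the 5 overlaps another gene. The nearest on either side are rbm-39, which ends 1744 bases before mir-2209b, and abhd-14, which starts 505 bases after mir-2209c on the minus strand. The annotated hairpins are 61 to 64 bases long with 2 mature arms of 22 or 23 bases each. No correction for length was therefore made between the 5 genes. Whether library preparation recovered them equally was not tested, so levels compared between genes are levels of counts. The counts are given per gene, and the arms were not counted apart.

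**Figure D1:**
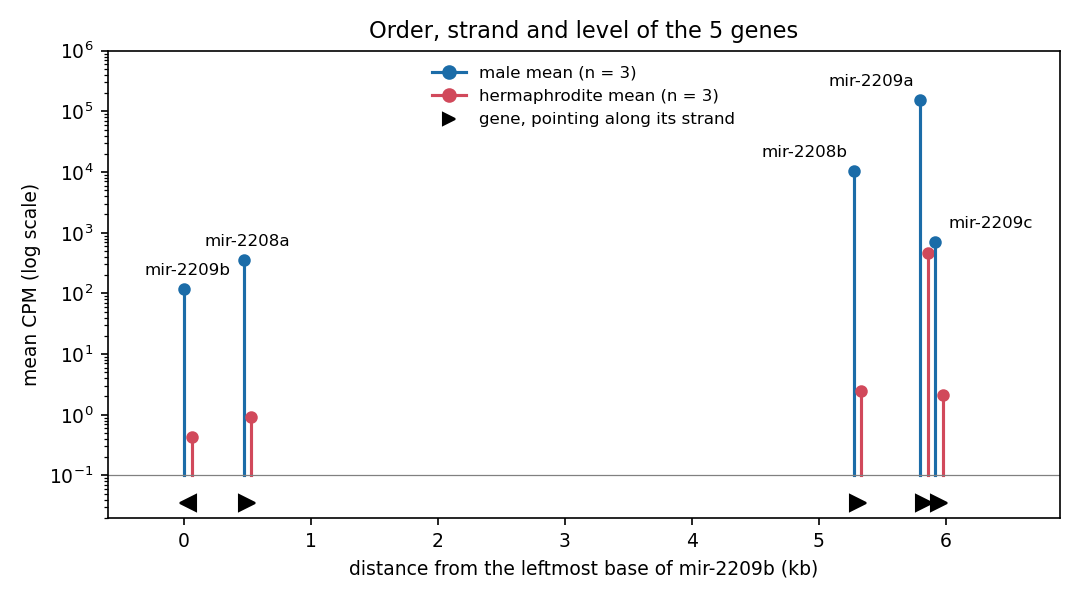
Position of the 5 genes along chromosome IV, as distance in kb from the leftmost base of mir-2209b, against mean CPM on a log scale (blue, male; red, hermaphrodite; n = 3 each). Arrows point along the strand. The most abundant gene, mir-2209a, at a male mean of 154016 CPM, lies next to mir-2209c at 693 CPM.

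The male libraries held 245399 to 597166 miRNA counts and the hermaphrodite libraries 2268159 to 2621478, so depth and sex cannot be told apart. Levels are given in CPM, in which each library's miRNA counts are scaled to the same total, and where stated in scaled CPM, for which the library total is adjusted by trimmed mean of M values (TMM). Where a library had 0 counts, up to 3 counts remain possible, which is 5.02 to 12.2 CPM in male and 1.14 to 1.32 CPM in hermaphrodite libraries. All intervals and limits are for counting error alone and leave out the spread between libraries. Reads copied in PCR are not independent molecules, so even the counting error may be understated. The mir-35 family, mir-35 to mir-42, which marks oocytes and embryos, took 0.0550% to 0.0638% of male counts and 18.1% to 19.2% of hermaphrodite counts. Of the 5 markers of somatic tissue examined (mir-1, lsy-6, mir-124, mir-60 and mir-228), the summed share was 1.56% to 2.03% of male counts and 0.463% to 0.541% of hermaphrodite counts. Most of it was mir-228, the glial and hypodermal marker, which was higher in male gonads. Its log2 fold change was 1.22, with an SE of 0.39 and an adjusted p of 0.00458 in the edgeR quasi-likelihood test. Without hermaphrodite replicate 2 or replicate 3 this p was 0.149 or 0.165, and over 16 alternatives it ranged from 0.000266 to 0.165. Of the 4 markers tested, lsy-6, the miRNA of a single neuron, was also called as higher in male gonads. The muscle miRNA mir-1 was called as lower. The lsy-6 call rests on 8, 20 and 2 counts in male and 12, 7 and 9 counts in hermaphrodite libraries. Only its male CPM was high enough for the filter on low counts, which favours this direction. The lsy-6 call held in 3 of 12 alternatives and the mir-1 call in 13 of 16 (highest adjusted p 0.702 for lsy-6 and 0.886 for mir-1). The intestinal mir-60 did not pass, at an adjusted p of 0.0582. The neuronal mir-124 had 1, 2 and 0 counts in male and 3, 1 and 6 counts in hermaphrodite libraries. The part of somatic cells in the results on the 5 genes was not tested. In bulk RNA, fewer cells of a type and less RNA per cell cannot be told apart.

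Together the 5 genes took 18.5%, 19.6% and 11.6% of all miRNA counts in male replicates 1 to 3, against 0.0432%, 0.0503% and 0.0477% in hermaphrodite replicates 1 to 3. The mean was 16.6% ± 4.35 in male and 0.0470% ± 0.00356 in hermaphrodite gonads (SD, n = 3 each). The groups did not overlap, and male replicate 3, the smallest library, was the lowest of the male libraries. Nearly all of this was mir-2209a. It had 103652, 80734 and 25800 counts in the male libraries, or 173573, 183341 and 105135 CPM, against 1109, 1164 and 1074 counts in the hermaphrodite libraries, or 423, 497 and 474 CPM. It ranked first among all miRNAs in male replicates 1 and 2, at 17.4% (95% Wilson interval 17.3% to 17.5%) and 18.3% (18.2% to 18.4%) of counts, and was in place 3 in male replicate 3, at 10.5% (10.4% to 10.6%). In each hermaphrodite library it was in place 37.

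The second gene by male level was mir-2208b. Its counts were 6194, 5053 and 2334 in male libraries, against 10, 3 and 5 in hermaphrodite libraries. That is 10372, 11475 and 9511 CPM in male and 3.81, 1.28 and 2.20 CPM in hermaphrodite gonads. The male libraries lay within 1.21-fold of each other, and in scaled CPM their coefficient of variation was 4.89%, against 17.5% for mir-2209a. Of the 5 genes it was the steadiest between male libraries on that scale. On the authors' normalized values it was not. There mir-2209a varied less relative to its mean, at 91275 ± 9472 against 6382 ± 927 for mir-2208b (SD, n = 3).

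The other 3 genes were minor. For mir-2209c the counts were 324, 323 and 197 in male libraries, against 9, 5 and 2 in hermaphrodite libraries. In CPM the male values were 543, 734 and 803, so that here the smallest library was the highest. For mir-2208a the counts were 202, 179 and 80 in male libraries, against 5, 2 and 0 in hermaphrodite libraries. For mir-2209b, the only one on the minus strand, they were 83, 64 and 18 in male libraries, against 0, 3 and 0 in hermaphrodite libraries. The male means were 693 CPM ± 135 for mir-2209c, 357 CPM ± 43.4 for mir-2208a and 119 CPM ± 39.9 for mir-2209b (SD, n = 3). Each of the 5 genes was above all hermaphrodite libraries in every male library, in CPM and in scaled CPM. Of all 124 miRNAs tested, 38.7% had every male library above every hermaphrodite library in scaled CPM, and 29.0% had every male library below.

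**Figure D2:**
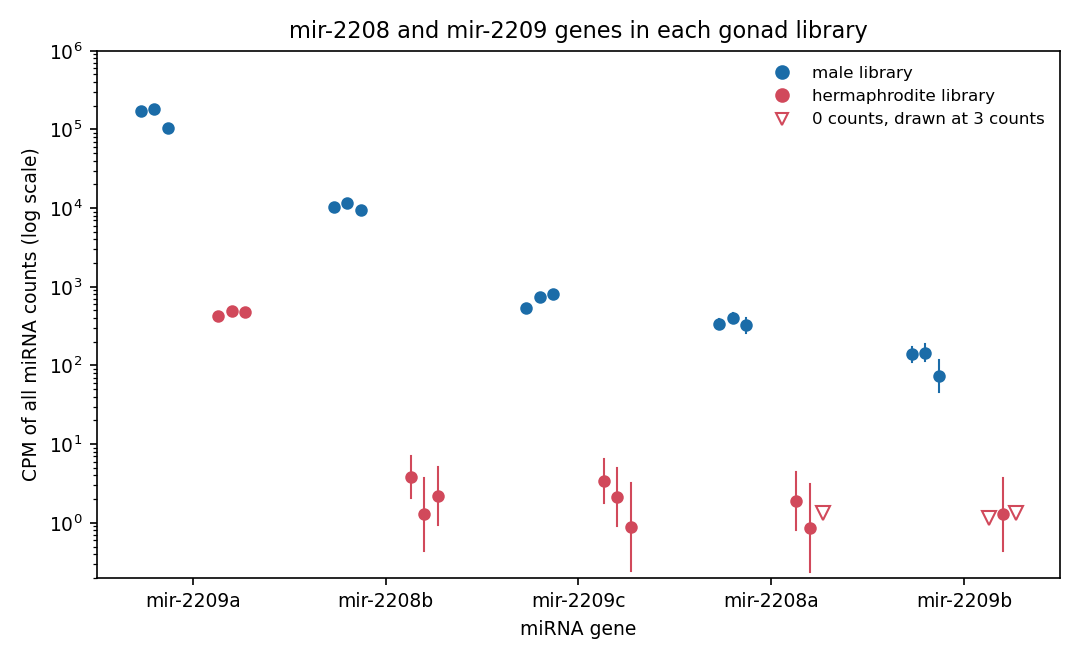
CPM on a log scale of the 5 genes in each library (blue, male replicates 1 to 3; red, hermaphrodite replicates 1 to 3), with 95% Wilson intervals. Open triangles mark libraries with 0 counts, drawn at 3 counts. The male libraries fall into 5 separate levels, from mir-2209a at 105135 CPM or more down to mir-2209b at 145 CPM or less.

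In the male libraries the order mir-2209a, mir-2208b, mir-2209c, mir-2208a, mir-2209b held in each of the 3, with no overlap between neighbours. Among all 253 miRNAs these were places 1, 16, 41, 52 and 75 by mean male CPM. By range over the male libraries they did not stand apart from the miRNAs next to them. Below mir-2209a came mir-235, with a range of 68441 to 274011 CPM that enclosed it. The top of that range was male replicate 3. In male replicates 1 and 2 mir-235 had 73410 and 68441 CPM, below mir-2209a at 173573 and 183341 CPM. On either side of mir-2208b were mir-64, with a mean of 10730 CPM, and mir-73, with 9654 CPM, and both overlapped it. The neighbours of mir-2209c (mir-795 and mir-243), of mir-2208a (mir-87 and mir-2220) and of mir-2209b (mir-249 and mir-63) likewise overlapped them in range. In the hermaphrodite libraries mir-2209a stood alone at place 37, and the other 4 genes, at places 127 to 147, could not be ordered among themselves at this depth.

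The fit over all 124 miRNAs that passed the filter on low counts gave these male over hermaphrodite log2 fold changes. They were 11.02 (SE 0.625) for mir-2208b, 7.41 (SE 0.71) for mir-2208a, 7.31 (SE 0.456) for mir-2209a and 7.25 (SE 0.612) for mir-2209c. The values for all but mir-2209a rest on at most 10 counts in any hermaphrodite library, and those 4 genes passed the filter through their male counts. For mir-2209b, with 3 hermaphrodite counts in all, the value was 6.87 (SE 0.815). By limma-trend on the authors' normalized values it was 5.57 with a pseudocount of 1 and 7.925 with a pseudocount of 0.1. For mir-2208a these 2 settings gave 6.67 and 8.12, so both values are loosely fixed. Pooled by library totals, a scale other than that of the fits, CPM of mir-2209b was 310-fold higher in male gonads. The exact 95% counting interval was 104 to 1519. On the same scale mir-2209a was 354-fold higher. In scaled CPM the ratio of means was 108 for mir-2209b and 159 for mir-2209a. The median log2 fold change over all miRNAs tested was 0.15, and 55.6% of them were called at an adjusted p under 0.05 in edgeR, 30.6% as higher and 25.0% as lower in male gonads. All 5 genes were among those called, which follows from how they were chosen. Scaling by library totals raised that median by 1.03 and put the members between 7.90 for mir-2209b and 12.00 for mir-2208b. In the authors' deposited table of normalized values, mir-2209a had 92289, 100200 and 81338 in male libraries, against 637, 866 and 677 in hermaphrodite libraries. For mir-2208b the values were 5515, 6271 and 7358 in male libraries, against 5.75, 2.23 and 3.15 in hermaphrodite libraries.

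Ratios between the genes within a library do not depend on the scaling between libraries. In male gonads mir-2209a was 92.7% ± 1.69 of their summed counts, mir-2208b 6.56% ± 1.44, mir-2209c 0.453% ± 0.211, mir-2208a 0.224% ± 0.0513 and mir-2209b 0.0709% ± 0.00655 (SD, n = 3). In hermaphrodite gonads mir-2209a was 98.7% ± 0.753 and mir-2208b 0.533% ± 0.32 (SD, n = 3).

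The steadiest male ratio was between the mir-2208 genes. There were 30.7, 28.2 and 29.2 counts of mir-2208b for each count of mir-2208a in male replicates 1 to 3, and the counting intervals of the 3 libraries overlapped. The ratio of mir-2209a to mir-2209b was also alike in the 3 male libraries, at 1249, 1261 and 1433. That of mir-2209a to mir-2208b was 16.7, 16.0 and 11.1, with the interval of replicate 3 (10.6 to 11.5) below those of the other male libraries. The widest male spread involving mir-2209a was against its close neighbour mir-2209c, at 320, 250 and 131, a 2.44-fold range with no overlap of the intervals. In male replicate 3, mir-2209c, mir-2208a and mir-2208b were each more abundant relative to mir-2209a than in the other male libraries, by point value, and mir-2209b was not. For mir-2208a and mir-2209b the intervals of replicates 2 and 3 overlapped.

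**Figure D3:**
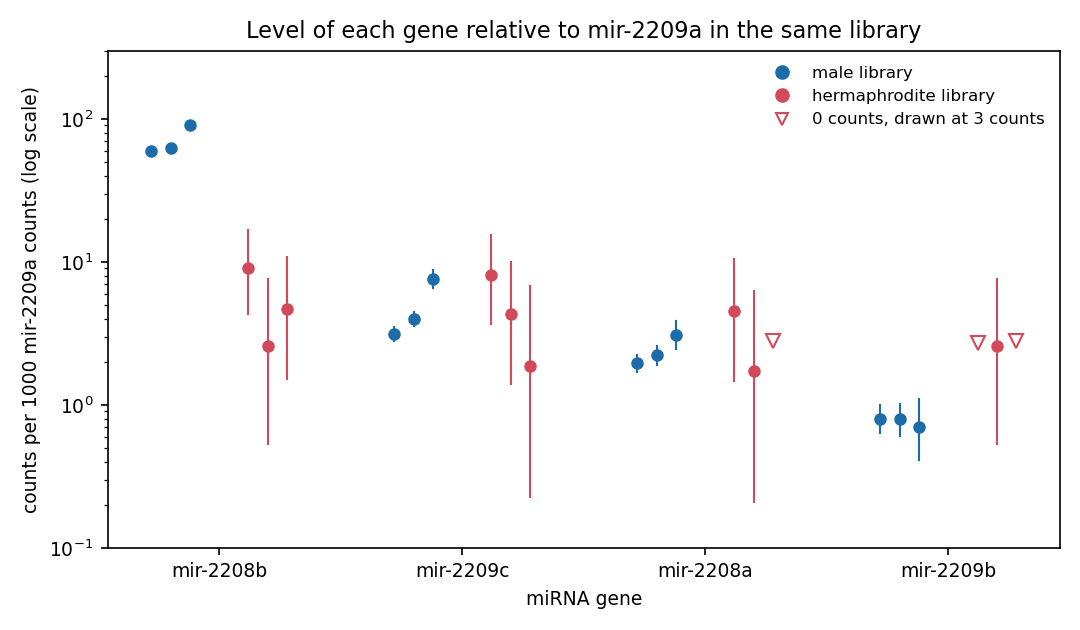
Counts of each gene per 1000 counts of mir-2209a in the same library, on a log scale (blue, male; red, hermaphrodite), with exact 95% counting intervals; triangles mark 0 counts, drawn at 3. Pooled over libraries, mir-2208b stood at 64.6 in male and 5.38 in hermaphrodite gonads, and the intervals of the other 3 genes overlapped between the sexes.

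Between the sexes, mir-2208b departed from the rest of the group. Pooled over 3 libraries, its level per 1000 counts of mir-2209a was 64.6 (exact 95% counting interval 63.5 to 65.7) in male gonads and 5.38 (3.18 to 8.51) in hermaphrodite gonads. By library it was 59.8, 62.6 and 90.5 in male and 9.02, 2.58 and 4.66 in hermaphrodite gonads. Every male library was above every hermaphrodite library. As a ratio, mir-2209a over mir-2208b averaged 14.6 ± 3.08 in male and 238 ± 140 in hermaphrodite gonads (SD, n = 3 each). At the pooled male ratio to mir-2209a, the hermaphrodite libraries would together hold 216 counts of mir-2208b, and they held 18.

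The other 3 genes kept about the male proportion to mir-2209a in hermaphrodite gonads, as far as few counts can show. Per 1000 counts of mir-2209a, mir-2209c stood at 4.02 (exact 95% counting interval 3.75 to 4.30) in male and 4.78 (2.73 to 7.77) in hermaphrodite gonads. For mir-2208a these values were 2.19 (2.00 to 2.40) in male and 2.09 (0.840 to 4.31) in hermaphrodite gonads. For mir-2209b they were 0.785 (0.670 to 0.914) in male and 0.896 (0.185 to 2.62) in hermaphrodite gonads. The hermaphrodite counts were 16, 7 and 3 in all, where the male ratio gives 13.4, 7.34 and 2.63. The intervals allow a difference from the male ratio of over 1.5-fold for each of the 3. Within the mir-2208 genes the pooled ratio of mir-2208b to mir-2208a was 29.5 (26.8 to 32.4) in male and 2.57 (1.02 to 7.28) in hermaphrodite gonads. Lettered miRNAs are named for their similarity in sequence, and how reads that match several of them were counted is not given in the sources used here. The division of counts between letters is uncertain for that reason. Summed over letters, the log2 fold change was 10.62 (SE 0.592) for mir-2208 and 7.32 (SE 0.43) for mir-2209.

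Mean hermaphrodite CPM was 0.302% of mean male CPM for mir-2209a, 0.310% for mir-2209c, 0.258% for mir-2208a and 0.358% for mir-2209b, and 0.0233% for mir-2208b. On pooled counts the residual was 0.282% (exact 95% counting interval 0.273% to 0.292%) for mir-2209a and 0.0235% (0.0139% to 0.0372%) for mir-2208b. The interval of mir-2208b lay below those of the other 4 genes. These percentages move with the scaling, to 0.630% for mir-2209a and 0.0460% for mir-2208b in scaled CPM, and for mir-2209b to 0.926% in scaled CPM and 1.06% on the authors' normalized values. The lowest was mir-2208b on each of these scales, and the order of the other 4 genes was not the same on all of them. In CPM the hermaphrodite libraries were alike for mir-2209a, with a highest over lowest value of 1.17. In scaled CPM they were less so, at 601, 887 and 530, with a coefficient of variation of 28.1%.

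The same quantity was computed the other way round for the mir-35 family, whose members are abundant in the hermaphrodite gonad. For the 4 members with most counts, the pooled male level was 0.277% (mir-35), 0.294% (mir-39), 0.341% (mir-37) and 0.484% (mir-36) of the hermaphrodite level. In library totals the intervals of mir-35, mir-39 and mir-37 overlapped that of mir-2209a, at 0.282% in the opposite direction. The interval of mir-36 (0.393% to 0.589%) lay above it. These intervals leave out the spread between libraries. By male library, mir-36 ranged from 0.388% to 0.640% of its mean hermaphrodite CPM. In scaled CPM these 4 family members lay lower, at 0.132% to 0.236% against 0.630% for mir-2209a. The less abundant mir-40, mir-38 and mir-42 were at 0.476%, 9.02% and 24.4% on pooled counts, with 4, 2 and 10 male counts, and mir-41 had 0 male counts. The interval of mir-2208b, with an upper limit of 0.0372%, lay below the intervals of mir-35, mir-39, mir-37 and mir-36, the lowest of which began at 0.245%. It did not lie below that of mir-41, which ran from 0% to 20.8%. The intervals of the other 4 mir-2208 and mir-2209 genes each overlapped that of mir-35.

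**Figure D4:**
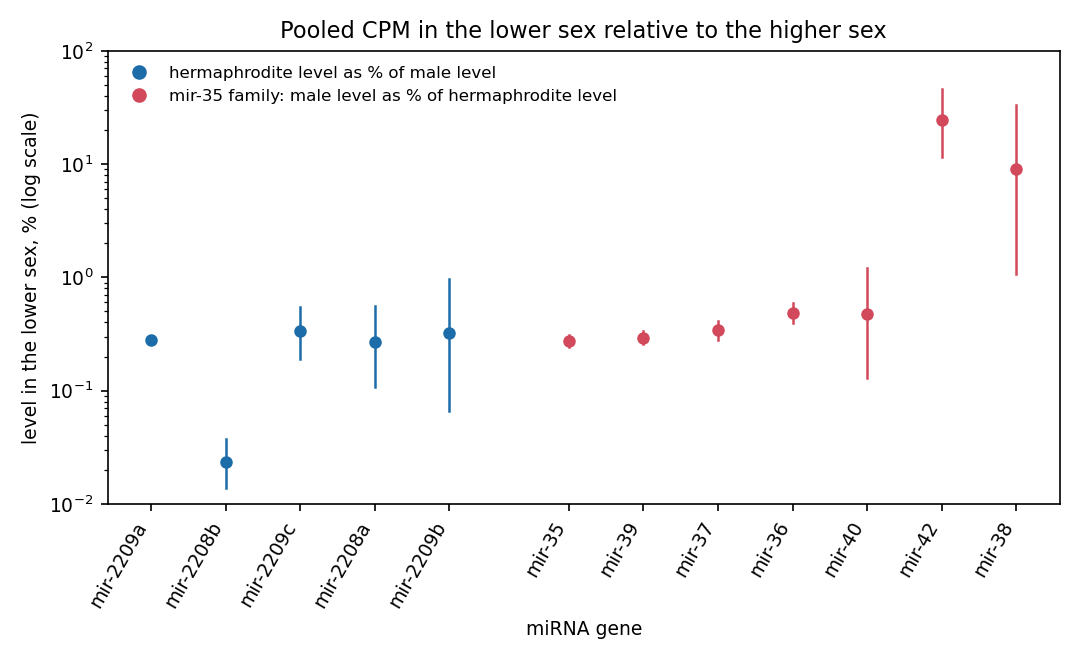
Pooled CPM in the sex with the lower level as a percentage of the other sex, on a log scale, with exact 95% counting intervals (blue, hermaphrodite over male for the 5 genes; red, male over hermaphrodite for the mir-35 family; mir-41, at 0 counts in male libraries, is left out). Of the 5 genes, 4 lie between 0.269% and 0.336% and mir-2208b lies at 0.0235%; mir-38 and mir-42 rest on 2 and 10 male counts.

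Other miRNA genes of chromosome IV were compared to see how far the male excess extended beyond the locus. Of 44 others annotated there, none started within 10 kb of the 5 genes, and the nearest, mir-4937, was 354487 bases away. Of the 23 that passed the filter, 8 (34.8%) were higher and 5 (21.7%) lower in male gonads at an adjusted p under 0.05 (edgeR, adjusted over all 124), against 30.6% and 25.0% of all miRNAs tested. Their median log2 fold change was 0.38, against 0.15 over all. These numbers moved with the scaling, to 13 higher and 2 lower with library totals and 10 higher and 3 lower by upper quartile. They were 4 higher of 21 tested once hermaphrodite replicate 2 or replicate 3 was left out, and 8 lower of 25 tested without male replicate 3. For mir-4937 the log2 fold change was 0.04 (SE 0.462), between -0.41 and 1.08 over the alternatives. It averaged 184 scaled CPM ± 58.3 in male and 179 scaled CPM ± 31.5 in hermaphrodite gonads (SD, n = 3 each).

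Elsewhere on the chromosome, single miRNAs moved in both directions. The largest rise outside the group was that of mir-58c, of the bantam-like mir-58 family, with 624, 465 and 182 counts in male and 13, 15 and 8 counts in hermaphrodite libraries. The fit gave a log2 fold change of 6.49 with an SE of 0.549 and an adjusted p of 3.41e-26 (edgeR). The next hairpin beside it, mir-58b, was lower in male gonads, with 3, 6 and 0 counts in male and 19, 25 and 29 counts in hermaphrodite libraries. Its log2 fold change was -1.61 and its adjusted p 0.0321 (edgeR), which ranged from 0.0095 to 0.505 over 13 alternatives that tested it. On the filter on low counts, mir-58c passed through its male counts and mir-58b through its hermaphrodite counts, which favours these directions. The split of counts between these lettered hairpins is uncertain as well. At mir-246 the difference was in the opposite direction, at -5.05 on the log2 scale with an SE of 0.414 and an adjusted p of 5.08e-27 (edgeR). It averaged 3104 scaled CPM ± 1453 in male and 102733 scaled CPM ± 10252 in hermaphrodite gonads (SD, n = 3 each). These calls of mir-58c and mir-246 held in all 16 alternatives.

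**Figure D5:**
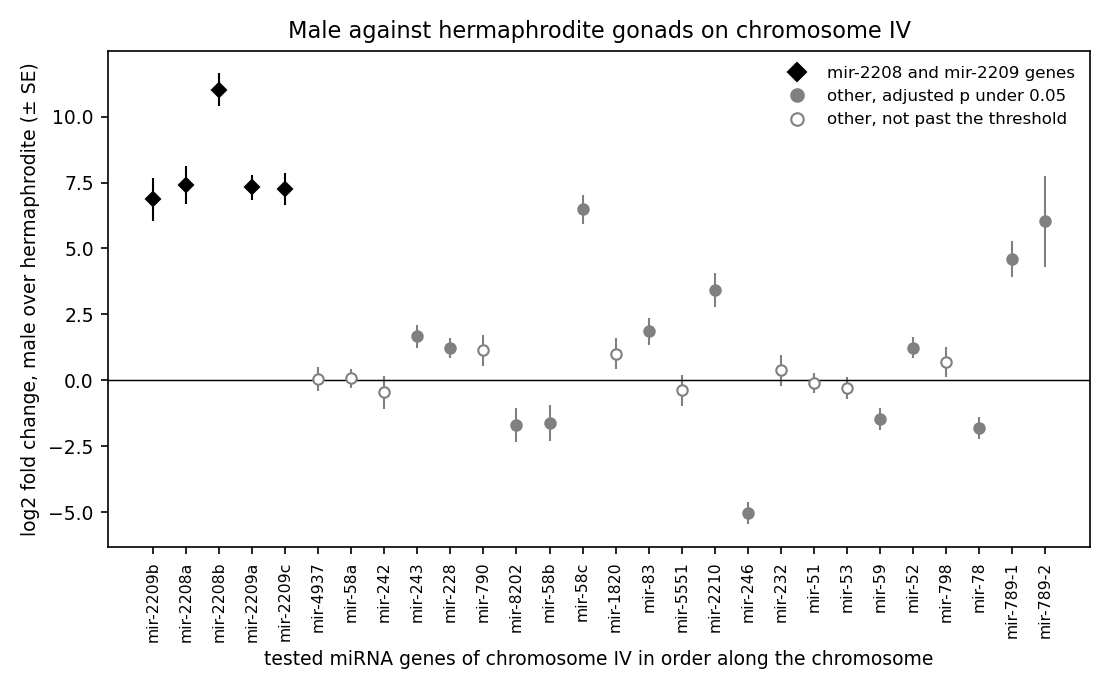
Log2 fold change, male over hermaphrodite (± SE), of the 28 miRNAs of chromosome IV that were tested, in order along the chromosome. Diamonds mark the 5 mir-2208 and mir-2209 genes, which are a description; among the others, filled circles passed an adjusted p of 0.05 in edgeR. The miRNA nearest to them, mir-4937, lies at 0.04.

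Of the tables' other rows, 16 carry numbers from mir-2207 to mir-2220, and 11 of these had no count in any library. The 2 that were tested, mir-2210 and mir-2220, were both higher in male gonads. Both passed the filter on low counts through their male counts, which favours this direction. Among those not tested, mir-2219 had 1, 0 and 0 counts in male and 3, 4 and 11 counts in hermaphrodite libraries. Counts of mir-2210, which is also on chromosome IV, were 28, 9 and 25 in male and 4, 5 and 10 in hermaphrodite libraries. The log2 fold change was 3.42 with an SE of 0.655 and an adjusted p of 1.46e-06 (edgeR). Counts of mir-2220, on the X chromosome, were 256, 255 and 14 in male and 28, 7 and 24 in hermaphrodite libraries. The log2 fold change was 4.43 with an SE of 0.599 and an adjusted p of 2.44e-10 (edgeR). Male replicate 3 was far below the other male libraries for mir-2220, also in CPM, and close to them for mir-2208b. Both were called in all 16 alternatives, with an adjusted p of at most 0.0282 for mir-2210 and 0.027 for mir-2220.

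The miRNAs whose pattern over the 6 libraries was most like the mean pattern of the 5 genes were taken by the mean absolute difference of log2 scaled CPM, after each miRNA's own mean was removed. The nearest was mir-58c, at 0.494. It was followed by the X-linked mir-1018 at 1.07, mir-4809 at 1.13, mir-4808 at 1.31 and mir-4807 at 1.37. The median over all other miRNAs tested was 3.65. Among the 5 genes, which themselves form the mean, the distance was 0.209 for mir-2209a, 0.334 for mir-2209c and 0.399 for mir-2208a. It was 1.03 for mir-2209b and 1.65 for mir-2208b, both above the value of mir-58c. For mir-2209b the distance rests on 0, 3 and 0 hermaphrodite counts and on the prior count of 2. It therefore cannot show whether mir-58c was more like the group than mir-2209b was. This likeness is over 6 libraries that differ in sex and depth together. In counts, mir-1018 stood at 4306, 3234 and 679 in male libraries, against 222, 144 and 182 in hermaphrodite libraries. Unlike mir-2208b, it was lower in male replicate 3 also in scaled CPM, with 3946 scaled CPM ± 1484 over the male libraries (SD, n = 3), where mir-2208b had 7370 scaled CPM ± 361.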

How the data were processed

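Small RNA of male and hermaphrodite gonads was sequenced after column extraction and TruSeq Small RNA library preparation, per the labels' protocols. The authors deposited raw read counts for 253 miRNA genes per library. Bowtie2, HTSeq and DESeq2 are named in the submitters' processing notes, without versions or roles. The build ce10 appears only in file and column names, and how multiply matching reads were assigned is not given in the sources used here. A second table deposited by the authors holds normalized signal, per the file headers for the same 6 libraries. It equalled the counts divided by median-of-ratios size factors within 1e-08 and was used as an alternative.

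Counts were fitted with edgeR 4.0.16 in R 4.3.3: filterByExpr (minimum count 10), which kept 124 miRNAs and left out 129, TMM scaling, and glmQLFit and glmQLFTest with robust settings, Benjamini-Hochberg at 0.05. SE is the log2 fold change over the square root of F. The fit was tested on simulated data. Shares have Wilson and ratios exact binomial intervals at 95% (scipy 1.17.1).

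The members, lists and named miRNAs were chosen with earlier results of these data known. Named are the 5 genes, listed miRNAs, the 5 nearest patterns (prior count 2), neighbours in male level, the most abundant member of the mir-35 family and the somatic markers. mir-4937, mir-58b, mir-58c, mir-246 and further mir-35 family members were named after their values were seen. Positions come from WBcel235, matched by name for 250 miRNAs. The counts hold no coordinates, and none was converted. Mature sequences and seeds were not analysed here.

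The alternatives comprised scaling by RLE, by upper quartile, by library totals or by TMM computed without the 5 genes and the mir-35 family, 2 filters, DESeq2 1.42.0, limma-trend (limma 3.58.1) on log2 normalized values with a pseudocount of 1 or 0.1, the replicate block, each library left out, and lettered members summed. Library totals ranged from 245399 to 2621478 counts.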

Additional observations from a re-analysis of the deposited data

How the results depend on the processing

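The 5 genes stayed higher in male gonads in all 16 alternatives that fitted them singly. Their log2 fold changes ranged from 6.93 to 8.37 for mir-2209a, 10.33 to 12.00 for mir-2208b, 6.46 to 8.42 for mir-2208a, 6.47 to 8.25 for mir-2209c and 5.57 to 9.25 for mir-2209b. The value of 9.25 was without hermaphrodite replicate 2, which held all 3 hermaphrodite counts of mir-2209b. Over all miRNAs, 38 were called as higher in male and 31 as higher in hermaphrodite gonads. With library totals these numbers were 69 and 20, with the median log2 fold change shifted by 1.03. With libraries left out in turn they ranged from 23 to 43 and from 26 to 44, and the number higher in male gonads was 24 without hermaphrodite replicate 2 and 23 without hermaphrodite replicate 3; fewer miRNAs, 115 and 114, were then tested. They were 32 and 33 by RLE, against 50 and 27 by upper quartile. The replicate block gave 31 and 27. Correlations of deviations between libraries of the same replicate number were -0.119, -0.0456 and -0.268, which gave no sign of pairing. With 3 libraries per sex they cannot show that there was none. The hermaphrodite share of the 5 genes was 0.0577% when totals left out the mir-35 family and 0.0627% when they left out the most abundant other miRNA. Leaving out libraries moved the male share between 15.04% and 19.1% and the hermaphrodite share between 0.0454% and 0.0490%. The ratio of mir-2209a to mir-2208b ranged from 13.5 to 16.4 in male and from 163 to 301 in hermaphrodite gonads, and the share of mir-2209a in the group from 92.1% to 93.7% and from 98.4% to 99.1%. Counts of 0 to 10 in hermaphrodite libraries limit the ratios of the 4 less abundant genes.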
